A study of Rattus norvegicus with 12 samples.

Results

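Gene expression 6 h after sciatic nerve resection was compared with that 3 h after it, in rat dorsal root ganglia. The 3 arrays of 6 h and the 3 arrays of 3 h were taken from a series of 12 arrays, since these were the only times whose slides were scanned on the same day. Of 35287 gene names on the array, 21480 had a probe that was well above background on all 12 arrays, and each was represented by its brightest such probe. Male Sprague-Dawley rats had a 1 cm piece of the left sciatic nerve removed at mid-thigh, and the ganglia of lumbar levels 4 to 6 were collected afterwards. Every group in the series was injured: the labels name 6 rats per time, 3 arrays per time at 0.5, 3, 6 and 9 h, and no uninjured group. How the RNA of the rats was divided among the arrays is not stated, so the p-values measure the spread between these samples, which may in part be technical. Levels are log2 intensities relative to the 75th percentile of each array, and the differences are 6 h minus 3 h. A gene was called when its limma p-value, adjusted by the Benjamini-Hochberg method over all genes, was under 0.05.

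A dorsal root ganglion holds the cell bodies of the sensory neurons whose axons run in the nerve, wrapped by satellite glia and surrounded by Schwann cells, vessels, connective tissue and resident macrophages. Cutting the nerve starts transcription within hours, first of immediate early genes and then of factors, cytokines and chemokines tied to injury and regrowth. Surgery and anaesthesia are also a systemic stress: steroids of the adrenal gland bind the glucocorticoid receptor, which switches on a set of target genes in most tissues, and tissue clocks are set in part by the same hormones.

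The arrays were alike in brightness. Their 75th percentiles were 1719 to 1990 intensity units at 6 h and 1679 to 1889 at 3 h, and 83.2 to 84.9% of probes were well above background at 6 h, against 82.3 to 83.3% at 3 h. All 12 sensory neuron identity genes and all 20 pan-neuronal genes on the array passed the filter. Slides did not cross the times: replicate 1 of 6 h was on 1 slide, replicates 2 and 3 of 6 h on another and the 3 arrays of 3 h on another again, so slide and time cannot be told apart. In tissue samples such as these, fewer cells of a type and less RNA per cell cannot be told apart either.

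In all, 3372 genes (15.7%) were called, 1675 higher (7.8%) and 1697 lower (7.9%) at 6 h, and the median difference over all genes was -0.06. In 7958 genes (37.0%) all arrays of 6 h lay on the same side of all arrays of 3 h. Leaving out 1 array moved the count most for 6 h replicate 3 (1779 called), 6 h replicate 2 (2121 called) and 3 h replicate 1 (1942 called). The normexp background correction, which models the local background of each spot in place of the scanner software's subtraction, called only 605 genes, and 590 of these were among the 3372. It was run with an offset of 50 intensity units added to each spot, which shrinks the log2 differences of dim probes most. The part of this offset in the lower count was not tested. Scaling each array to its median split the calls into 1590 higher and 899 lower, and cyclic loess into 1994 and 1107.

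Many glucocorticoid target genes were lower at 6 h than at 3 h, in a list chosen, like the others, with earlier results of these data known. Of the 25 tested, 13 fell and none rose, a share of 52.0% called, against 15.7% over all genes. At an unadjusted limma p under 0.05, 17 were lower and 0 higher. Their median log2 difference was -0.50, against -0.06 over all genes, and 19 of the 25 had 6 h arrays that were all on the same side of the 3 h arrays, which held for 37.0% of all genes. The list's mean level, centred over the 12 arrays, was -0.20, -0.32 and -0.24 on the 6 h arrays and 0.38, 0.34 and 0.34 on the 3 h arrays.

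Fkbp5, a co-chaperone that dampens the receptor it is induced by, had levels of 2.51, 1.98 and 1.97 at 6 h, against 3.14, 3.26 and 3.03 at 3 h. No 6 h array reached a 3 h array, and the gene fell by 0.99 on the log2 scale (limma adjusted p = 0.00364, SE 0.17). Both of its other probes had the same direction. Zbtb16, a zinc finger repressor strongly induced by steroids, was at -3.30, -3.32 and -3.90 at 6 h and at -1.48, -1.84 and -1.49 at 3 h. It fell by 1.91 (SE 0.29, adjusted p = 0.00149), to 0.267 times its 3 h level. Klf15, a factor that turns metabolism towards amino acid breakdown, was at 2.59, 2.38 and 2.79 at 6 h, against 3.99, 3.94 and 3.72 at 3 h. The groups lay far apart, and the fall was 1.30 on the log2 scale, which is a level of 0.407 times that at 3 h (SE 0.18, adjusted p = 0.000975).

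Nfkbia, Ddit4 and Errfi1, targets that restrain signalling or growth, fell by similar amounts. Nfkbia, the inhibitor that holds NF-kappaB in the cytoplasm, was at 1.17, 1.14 and 1.30 at 6 h and at 2.52, 2.46 and 2.45 at 3 h. The arrays within each time lay within a narrow band, and the difference was -1.28 (SE 0.09, adjusted p = 6.21e-06). Ddit4, an inhibitor of the growth kinase mTORC1, was at -0.04, -0.52 and -0.08 at 6 h, against 1.08, 0.86 and 1.1 at 3 h, a difference of -1.23 (SE 0.15, adjusted p = 0.000342). Errfi1, an inhibitor of the EGF receptor, was at 2.70, 2.49 and 2.90 at 6 h, against 3.64, 3.75 and 3.47 at 3 h, a difference of -0.92 (SE 0.14, adjusted p = 0.00169). In each of the 3 genes every 6 h array was below every 3 h array.

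Sgk1, a kinase that controls ion channels and transporters, fell by 0.83 (SE 0.16, adjusted p = 0.00569), and the arrestin-domain gene Arrdc2 by 1.15 (SE 0.16, adjusted p = 0.000782). The other called members were Per1, Dusp1, Hif3a, Angptl4 and Bcl6, with differences from -0.95 to -0.31. Not every classical target was called. Tsc22d3, which encodes the anti-inflammatory protein GILZ, was at 5.07, 4.75 and 4.96 at 6 h, against 5.21, 5.10 and 5.18 at 3 h, a difference of -0.24 with no overlap of the arrays (adjusted p = 0.104). With the mean of all its probes, however, Tsc22d3 was called (limma adjusted p = 0.0172). Cdkn1a, the cell cycle inhibitor p21, differed by -0.48 and was not called (adjusted p = 0.121), though its highest 6 h array, at 0.37, lay below its lowest 3 h array, at 0.44.

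**Figure D1:**
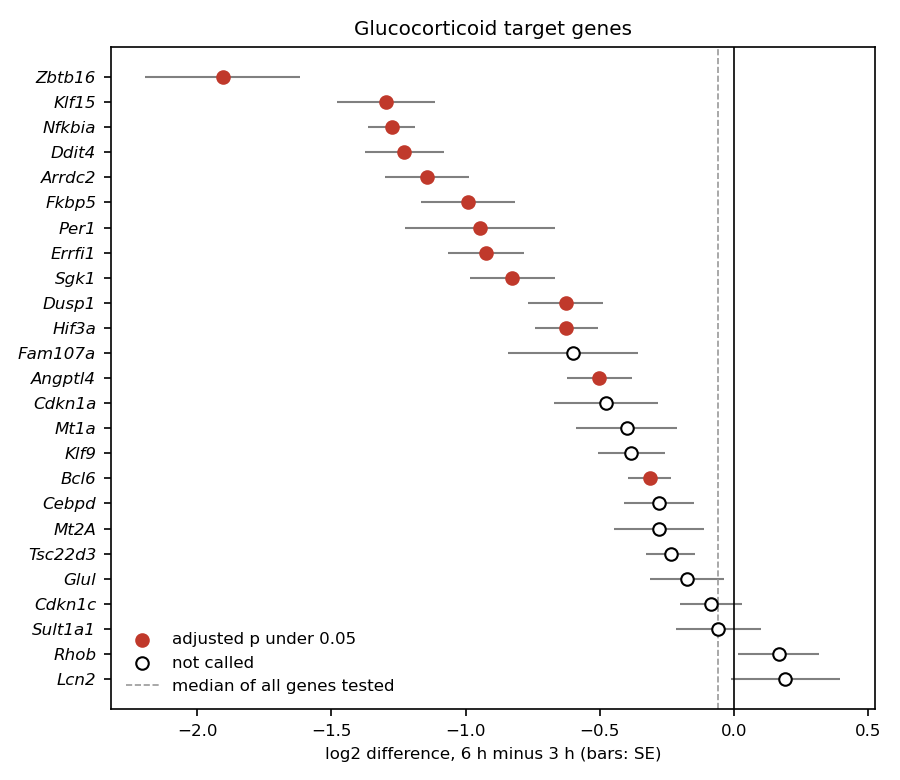
Log2 difference, 6 h minus 3 h, of the 25 glucocorticoid target genes tested, with SE from limma (3 arrays per time); filled points were called and open points were not. The 13 filled points all lie left of 0, from Zbtb16 at -1.91 to Bcl6 at -0.31, and the dashed line marks the median of all genes at -0.06.

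Beside the 6 h and 3 h values, Fkbp5 was at 2.01, 1.47 and 1.98 at 0.5 h and at 2.03, 1.98 and 1.74 at 9 h, so that the 3 h arrays were the highest of the 4 times. Zbtb16 too was highest at 3 h, with -3.09, -3.79 and -2.86 at 0.5 h and -2.66, -3.25 and -3.64 at 9 h. Nfkbia was at 2.60, 2.22 and 2.43 at 0.5 h and at 1.61, 1.57 and 1.65 at 9 h. The other times lie on their own slides and scan days, so time and batch cannot be told apart there and these levels were not tested.

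Leaving out any 1 array gave 10 to 13 lower members and none higher. The calls for Angptl4 and Bcl6 ended without 3 h replicate 1 or 3 or 6 h replicate 2 or 3 (adjusted p = 0.0582 to 0.0869), that for Dusp1 ended without 6 h replicate 3 (0.056), and that for Per1 ended without any 1 array of 0.5 h or 3 h, without 6 h replicate 1 or 2, or without 9 h replicate 2 (0.0531 to 0.147). Under normexp 6 members were called lower, Klf15, Nfkbia, Ddit4, Fkbp5, Errfi1 and Sgk1, while Zbtb16 and Arrdc2 were not (adjusted p = 0.233 and 0.8) and Hif3a turned its sign.

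Several cytokine, chemokine and adhesion genes were higher at 6 h. Of the 13 tested, 5 rose and none fell, a share of 38.5% called against 15.7% over all genes (at an unadjusted limma p under 0.05, 8 higher and 1 lower), and the list's median difference was 0.57. There was no overlap between 6 h and 3 h arrays for 9 of the 13, which held for 37.0% of all genes. The interleukin Il6 was on the array but was not well above background on all arrays and was not tested.

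Cxcl1, a chemokine that attracts neutrophils, was at -2.60, -2.52 and -3.15 at 6 h, against -4.72, -3.95 and -4.74 at 3 h. The lowest 6 h array was above the highest 3 h array, and the level rose 3.28-fold (log2 1.71, SE 0.28, adjusted p = 0.00258). Ccl2, a chemokine that attracts monocytes, was at 3.23, 3.31 and 3.09 at 6 h, against 2.58, 2.65 and 2.38 at 3 h, which is 1.59-fold higher (log2 0.67, SE 0.09, adjusted p = 0.000567). Its groups did not overlap, and it stood at 3.82, 3.96 and 3.73 at 9 h.

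Il1b, the interleukin that starts much of the inflammatory cascade, was at -2.32, -2.53 and -2.40 at 6 h and at -3.98, -3.30 and -2.89 at 3 h. The 3 h arrays were widely spread, though none reached the 6 h arrays, and the difference was 0.97 (SE 0.25, adjusted p = 0.0245). Icam1, an adhesion molecule to which leukocytes bind, rose 1.51-fold (log2 0.59, SE 0.13, adjusted p = 0.0144). Csf1, the growth factor of macrophages and microglia that injured sensory neurons make, rose 1.32-fold (log2 0.40, SE 0.09, adjusted p = 0.0182), and its other probe had the same direction.

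Within the NF-kappaB pathway list only 2 of 12 genes were called, Nfkbia lower and the nuclear inhibitor Nfkbiz higher (log2 0.31, SE 0.09, adjusted p = 0.0492), near the share over all genes. The call for Nfkbiz held without 0.5 h replicate 2 or 3 or 3 h replicate 2 and was lost without each of the other 9 arrays. The 250 bases before the start of Nfkbia and Cxcl1 are shown because both genes are textbook NF-kappaB targets that here moved in opposite directions. They are RefSeq promoter windows on the assembly GRCr8, on the minus strand, for Nfkbia chr6:78597073-78597322 and for Cxcl1 chr14:17479322-17479571, and capitals mark GGG and TTTCC with any 2 bases between them, on either strand.
Nfkbia: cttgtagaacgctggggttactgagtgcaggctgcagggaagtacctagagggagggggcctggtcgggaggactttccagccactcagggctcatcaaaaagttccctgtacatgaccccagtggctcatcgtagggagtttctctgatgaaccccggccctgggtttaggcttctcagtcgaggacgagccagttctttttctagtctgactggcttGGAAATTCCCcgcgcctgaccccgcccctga
Cxcl1: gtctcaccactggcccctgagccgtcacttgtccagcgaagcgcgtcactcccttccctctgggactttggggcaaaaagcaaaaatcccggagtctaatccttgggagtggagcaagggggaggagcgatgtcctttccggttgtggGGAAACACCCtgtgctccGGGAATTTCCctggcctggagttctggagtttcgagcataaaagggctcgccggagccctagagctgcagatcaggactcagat
The Nfkbia stretch held 1 match and the Cxcl1 stretch 2. Of all 33469 RefSeq promoter windows, which run from 250 bases before a start to 50 after it, 1.53% held at least 1 match. The palindromic glucocorticoid response element, AGAACA and TGTTCT with any 3 bases between them, was in none of the 12 promoters matched among the 13 lower glucocorticoid targets and in 0.0149% of all windows. A match is a description of letters and says nothing of binding.

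The counts of called cytokine genes depended on single arrays: 2 rose without 3 h replicate 1, without 6 h replicate 2 or without 6 h replicate 3, and in the last case the chemokine Ccl5, named here after its values were seen, was called lower. The call for Icam1 ended in these 3 fits, that for Il1b also without 6 h replicate 1 and that for Csf1 also without 3 h replicate 3 (adjusted p = 0.051 to 0.0773 for the 3 genes), while Cxcl1 and Ccl2 were called without any 1 array. Only Cxcl1 was called under normexp (adjusted p = 0.00752). Neutrophil markers (6 tested) had mean centred levels of -0.13, -0.25 and 1.54 on the 6 h arrays and -0.42, -0.19 and -0.70 on the 3 h arrays, so that 6 h replicate 3 stood apart. Cxcl1 was at its lowest 6 h level on that array. Macrophage markers (13 tested) were at -0.16, 0.30 and 0.35 at 6 h and at -0.60, 0.20 and 0.23 at 3 h, with overlap, and none was called by limma (2 higher and 0 lower at an unadjusted p under 0.05). Summed on the linear scale, in units of each array's 75th percentile, the 6 neutrophil markers ranged from 4.63 to 21.7 at 6 h and from 3.38 to 4.93 at 3 h, and the 13 macrophage markers from 86.0 to 104.9 at 6 h and from 59.6 to 93.0 at 3 h. Their part in the result was not tested.

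**Figure D2:**
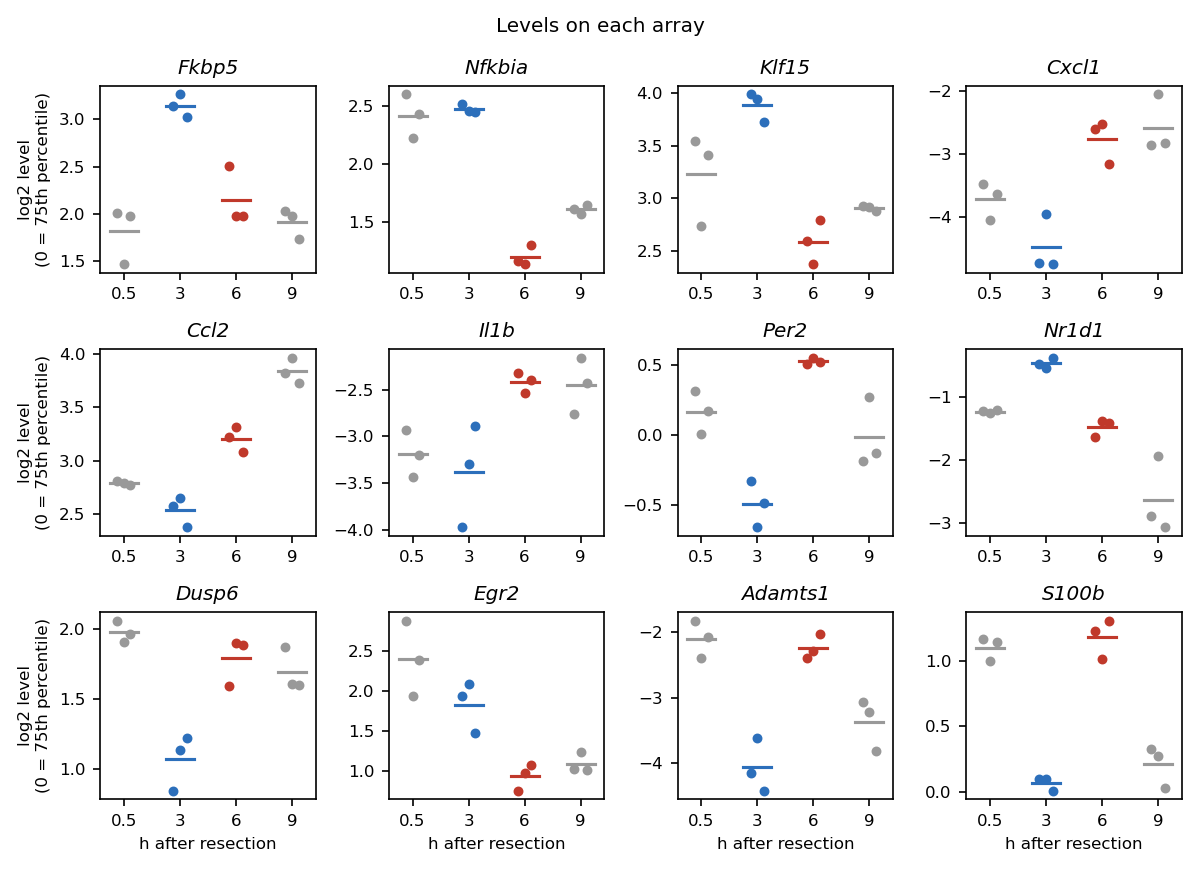
Log2 level of 12 genes on each array over the 4 times (0 is the 75th percentile of the array, lines are means of 3 arrays, 6 h in red, 3 h in blue and the other times in grey). The 6 h points lie below the 3 h points for Fkbp5, Nfkbia, Klf15, Nr1d1 and Egr2 and above them for the other 7 genes.

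Feedback inhibitors of MAP kinase signalling, which are induced by the pathway they switch off, split in direction. Of 13 tested, 4 rose and 2 fell, a share of 46.2% called against 15.7% over all genes. Spry4, an inhibitor of signalling from receptor tyrosine kinases, was at -0.71, -0.63 and -0.64 at 6 h and at -1.42, -1.51 and -1.49 at 3 h. Its groups lay well apart, and it rose 1.76-fold (log2 0.81, SE 0.09, adjusted p = 0.000129).

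Dusp6, the phosphatase that removes phosphate from ERK, was at 1.59, 1.90 and 1.88 at 6 h, against 0.85, 1.14 and 1.23 at 3 h, which is 1.65-fold higher (log2 0.72, SE 0.12, adjusted p = 0.00243). Dusp16, a phosphatase that prefers JNK and p38, rose 1.42-fold (log2 0.50, SE 0.07, adjusted p = 0.00109), and Dusp8 by 0.39 on the log2 scale (adjusted p = 0.0217). The members that fell were Errfi1 and Dusp1, both also glucocorticoid targets. Dusp1, a phosphatase of p38 and JNK, was at -1.28, -1.20 and -1.37 at 6 h, against -0.66, -0.82 and -0.50 at 3 h, with no overlap (difference -0.63, SE 0.14, adjusted p = 0.0128). The call for Dusp8 ended without 3 h replicate 1 or 2 or 6 h replicate 2 (0.0554 to 0.0829), that for Dusp1 without 6 h replicate 3 as above, and under normexp Spry4, Dusp16 and Errfi1 were called while Dusp6 was not (0.0585).

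Immediate early genes showed no common direction. Of 34 tested, 4 rose, 3 fell and 27 were not called (20.6% called, against 15.7% over all genes), and the median difference was 0.05. Egr1 and Egr2, related zinc finger factors, moved in opposite directions. Egr2 was at 0.75, 0.96 and 1.07 at 6 h, against 1.93, 2.08 and 1.47 at 3 h, a difference of -0.90 (SE 0.22, adjusted p = 0.0203). Egr1 was at -0.01, 0.37 and 0.18 at 6 h, against -0.54, -0.29 and -0.67 at 3 h, a difference of 0.68 (SE 0.18, adjusted p = 0.0317). In neither gene did the times overlap.

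Phlda1, an early response gene, rose by 0.34 on the log2 scale (adjusted p = 0.0103, SE 0.07). Fos, the prototype of the class, was at -0.93, -0.26 and -1.15 at 6 h and at -1.37, -0.89 and -1.21 at 3 h, which overlap (difference 0.38, SE 0.32, adjusted p = 0.457). Jun, its partner in the AP-1 factor, was at 3.01, 3.07 and 2.96 at 6 h and at 2.91, 3.12 and 2.96 at 3 h, a difference of 0.02 (SE 0.08, adjusted p = 0.901). The list's counts ranged from 1 to 6 higher and 1 to 5 lower over the fits that left out 1 array: 1 member was higher without 3 h replicate 1 or 6 h replicate 2 or 3 and 2 without 3 h replicate 3, and 1 was lower without any 1 array of 3 h or without 6 h replicate 1 or 2. The call for Egr1 ended without 3 h replicate 1 or 3 or 6 h replicate 2 or 3 (0.0918 to 0.11) and that for Egr2 without 3 h replicate 1 or 2 or 6 h replicate 1 or 2 (0.0532 to 0.0729).

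The core clock, a loop in which Clock and Bmal1 drive the Per and Cry repressors and the receptor Nr1d1 represses Bmal1, had 6 of 13 genes called, 3 in each direction (46.2%, against 15.7% over all genes). Per2, a repressor of the loop, was at 0.50, 0.55 and 0.52 at 6 h, against -0.33, -0.66 and -0.48 at 3 h, which is 2.02-fold higher (log2 1.01, SE 0.13, adjusted p = 0.000429). Cry1, its partner, was at 0.96, 0.71 and 0.71 at 6 h, against 0.20, 0.17 and 0.00 at 3 h, which is 1.59-fold higher (log2 0.67, SE 0.11, adjusted p = 0.00207). Nr1d1 (Rev-erb alpha) was at -1.64, -1.38 and -1.41 at 6 h, against -0.48, -0.55 and -0.39 at 3 h, a difference of -1.01 (SE 0.23, adjusted p = 0.0143). None of the 3 genes overlapped between the times.

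Per1, which unlike Per2 is counted here among the glucocorticoid targets, was at -1.66, -2.01 and -1.28 at 6 h, against -0.74, -0.62 and -0.76 at 3 h, a difference of -0.95 (SE 0.28, adjusted p = 0.044). Arntl, the older symbol of Bmal1, differed by -0.51 (SE 0.12, adjusted p = 0.0169), and the repressor Nfil3, an output gene of the clock, by -0.66 (SE 0.11, adjusted p = 0.00199). The output factor Dbp was at 1.99, 2.08 and 2.02 at 6 h and at 2.18, 1.88 and 1.88 at 3 h, which overlap (difference 0.05, adjusted p = 0.876). The call for Arntl ended without 3 h replicate 2 or 3 or 6 h replicate 3 (0.051 to 0.0645), and that for Bhlhb2, the remaining called member, without 0.5 h replicate 1, 3 h replicate 1 or 3, any 1 array of 6 h, or 9 h replicate 3 (0.0575 to 0.141). Under normexp Per2 was called (0.00387) and Cry1, Nr1d1 and Nfil3 were not (0.0961, 0.147 and 0.665). Clock hour of collection is not given in the labels, so time after surgery and time of day cannot be told apart.

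Of 29 genes tied to nerve injury and regeneration, 2 rose and 3 fell (17.2% called, close to the 15.7% over all genes). Without 3 h replicate 1 or 6 h replicate 3 the counts were 1 higher and 0 lower. Atf3, the factor most used as a sign of neuronal injury, was at 1.63, 1.99 and 1.82 at 6 h, against 0.95, 1.41 and 1.20 at 3 h. The groups did not overlap, but the difference of 0.63 was not called (SE 0.21, adjusted p = 0.0724). In the fit to the 6 arrays alone it was called (adjusted p = 0.0324), while calls that ended in that fit included those of Sox11 (0.0858), Scn10a (0.0782), Epyc (0.0744), Nfkbiz (0.0765), Il1b (0.0554), Dusp8 (0.0605), Bhlhb2 (0.0521), Sox10 (0.0604), Ptprz1 (0.06) and Slc1a3 (0.063). At 9 h Atf3 stood at 3.74, 3.52 and 3.75.

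Sox11, a factor of axon regrowth, was at -5.06, -4.49 and -4.72 at 6 h, against -4.12, -4.46 and -3.94 at 3 h. The highest 6 h array, at -4.49, lay just below the lowest 3 h array, at -4.46, and the gene was called lower (difference -0.58, SE 0.16, adjusted p = 0.0347). Normexp turned this sign, and the call was lost when 3 h replicate 1 or 3 or 6 h replicate 1 or 3 was left out (0.0887 to 0.108). Gadd45a, a stress response gene, and Gap43, a growth cone protein, differed by -0.15 and -0.14 (adjusted p = 0.241 and 0.249). Stat3, a factor activated by interleukin-6 family cytokines, was called higher (log2 0.44, SE 0.07, adjusted p = 0.00283), but its other probe had the opposite sign, and the mean of its probes was not called (0.953).

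Among the ion channels and receptors of sensory neurons, 2 of 33 rose and 3 fell (15.2% called), close to the share over all genes. No member was lower without 3 h replicate 1 or 6 h replicate 2 or 3. At an unadjusted limma p under 0.05, 11 were lower and 2 higher. The list's summed linear level was 336 to 363 at 6 h and 375 to 399 at 3 h. Mrgprd, found on nociceptive fibres that supply the epidermis, was at -0.88, -0.75 and -0.86 at 6 h, against -1.57, -1.65 and -1.41 at 3 h, which is 1.64-fold higher (log2 0.71, SE 0.18, adjusted p = 0.0209). Kcnd3, a channel of the transient potassium current, rose 1.36-fold (log2 0.44, SE 0.08, adjusted p = 0.00531). Scn10a, the nociceptor sodium channel Nav1.8, was at 5.0, 4.84 and 4.75 at 6 h and at 5.24, 5.05 and 5.21 at 3 h, with no overlap (difference -0.30, SE 0.07, adjusted p = 0.0223). The heat and capsaicin receptor Trpv1 was at 0.72, 0.82 and 0.49 at 6 h and at 0.71, 0.73 and 1.01 at 3 h, which overlap (difference -0.14, adjusted p = 0.409).

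Of 54 potassium channel genes, 9 rose and 5 fell (25.9% called, against 15.7% over all genes). Kcns2, a silent subunit that modifies Kv2 channels, was at -3.20, -3.63 and -3.53 at 6 h, against -4.63, -4.34 and -4.28 at 3 h, which is 1.95-fold higher (log2 0.96, SE 0.12, adjusted p = 0.000523). Kcnh2, the ERG channel, was at 1.59, 1.54 and 1.77 at 6 h, against 0.98, 0.93 and 0.70 at 3 h, which is 1.70-fold higher (log2 0.76, SE 0.12, adjusted p = 0.00214). Both pairs of groups lay apart. Leaving out 1 array gave 5 to 9 higher and 0 to 8 lower, and under normexp 1 channel was called each way, while Kcns2 was not (0.21). No potassium channel gene was lower without 3 h replicate 1 or 3 or 6 h replicate 3, and 5 were higher without 3 h replicate 1 or 6 h replicate 2 or 3. The calls for Mrgprd and Scn10a ended without 6 h replicate 2 or 3 or 3 h replicate 1, and also without 3 h replicate 2 for Mrgprd and 3 h replicate 3 for Scn10a (0.0566 to 0.0951). Of 20 pan-neuronal genes 2 were called, both lower (10.0% called, against 15.7% over all genes). Ina, the intermediate filament internexin, fell by 0.51 on the log2 scale (adjusted p = 0.0037, SE 0.09), and Mapt, which encodes tau, by 1.1 (SE 0.34, adjusted p = 0.0498, lost without any 1 array of 0.5 h, 3 h or 6 h, at 0.0635 to 0.158). At an unadjusted limma p under 0.05 the list had 7 lower and 1 higher. Its summed linear level was 1035 to 1091 at 6 h and 1093 to 1225 at 3 h. The 12 sensory neuron identity genes had 1 call, lower (8.3% called, against 15.7% over all genes). Their mean centred level was -0.215 to -0.087 at 6 h and -0.064 to 0.142 at 3 h, with no overlap. The part of cell content in these levels was not tested.

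Genes of satellite glia split as well, with 2 of 14 higher and 3 lower (35.7% called, against 15.7% over all genes). Both genes that rose, S100b and Sox10, were also in the list of Schwann cells and myelin. Of the 15 genes tested in that list, these 2 rose and 1, Egr2, fell. The rises of S100b and Sox10 can therefore not be assigned to satellite glia alone. S100b, a calcium-binding protein of glia, was at 1.23, 1.01 and 1.31 at 6 h, against 0.10, 0.10 and 0.01 at 3 h, which is 2.16-fold higher (log2 1.11, SE 0.10, adjusted p = 3.15e-05). It was at 1.17, 1.00 and 1.14 at 0.5 h and at 0.33, 0.27 and 0.03 at 9 h. Fabp7, a fatty acid carrier of satellite cells, was at 1.88, 1.82 and 2.20 at 6 h, against 2.88, 2.93 and 2.90 at 3 h, a fall of 0.94 on the log2 scale with no overlap (SE 0.22, adjusted p = 0.0155). The satellite glia list as a whole had overlapping mean levels, of -0.06, -0.10 and 0.00 at 6 h and 0.08, 0.02 and -0.02 at 3 h. Its summed linear level did not overlap, at 391 to 420 at 6 h and 428 to 451 at 3 h. The other called members were Sox10 (0.23), Ptprz1 (-0.32) and Slc1a3 (-0.32). The call for Sox10 ended without 3 h replicate 1 or 2 or any 1 array of 6 h (0.0519 to 0.122), that for Ptprz1, whose other probe had the opposite sign, without 3 h replicate 1 or 3 or 6 h replicate 2 or 3 (0.051 to 0.0892), and that for Slc1a3 without any 1 array but 0.5 h replicate 1 (0.0515 to 0.163). The call for Fabp7 ended without 6 h replicate 2 (0.0584), where no member of the list was called lower.

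In the following stress and metabolic lists every member called was lower at 6 h. Of 18 heat shock genes and co-chaperones 3 fell, of 21 genes of endoplasmic reticulum and amino acid stress 3 fell, of 25 glycolysis and hypoxia genes 5 fell and of 37 proteasome subunits 6 fell, with no increase in any of these lists. The shares called were 16.7, 14.3, 20 and 16.2%, against 15.7% over all genes. Other stress and metabolic lists had calls in both directions. Of 14 glutathione and Nrf2 target genes 1 rose and 2 fell (21.4% called), with differences from -0.44 for Sqstm1 to 2.55 for Gclm. Of 27 genes of cholesterol and fatty acid synthesis 2 rose and 1 fell (11.1% called). Hspa5, the chaperone BiP of the endoplasmic reticulum, was at 5.06, 5.18 and 5.16 at 6 h, against 5.49, 5.42 and 5.74 at 3 h (difference -0.42, SE 0.08, adjusted p = 0.00699). Slc2a1, the glucose transporter Glut1, was at 3.09, 2.90 and 2.96 at 6 h, against 3.48, 3.47 and 3.47 at 3 h (difference -0.49, SE 0.07, adjusted p = 0.000659). Neither overlapped between the times.

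Ankrd37, a target of hypoxia-inducible factor, fell by 0.62 (SE 0.08, adjusted p = 0.000567), and Sqstm1, the autophagy receptor p62, by 0.44 (SE 0.08, adjusted p = 0.00519), with its 3 other probes in the same direction. Of the chaperones, Hsp90aa1 fell by 0.35 (SE 0.07, adjusted p = 0.0059) with its 3 other probes in the same direction, while 1 of 2 other probes of Hsp90ab1 and the other probe of Hspa4 had the opposite sign. With the mean of all probes none of Hsp90aa1, Hsp90ab1 and Hspa4 was called (limma adjusted p = 0.088, 0.459 and 0.532). Over the fits without 1 array the glycolysis list had 2 to 5 lower members, with 2 without 3 h replicate 1 or 3 or 6 h replicate 1 or 3, and the proteasome list had 3 to 9, with 3 without 6 h replicate 2 or 3. Under normexp Ankrd37, Sqstm1 and Hsp90aa1 were called, and Hspa5 and Slc2a1 were not (0.0764 and 0.053).

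Of 27 genes of the activin, BMP and TGF-beta pathway 2 rose and none fell, a share of 7.4% called, near the 7.8% of all genes that rose. Fst, follistatin, which binds activin, was at -1.48, -1.1 and -1.26 at 6 h, against -2.05, -1.82 and -2.08 at 3 h, which is 1.63-fold higher (log2 0.70, SE 0.11, adjusted p = 0.0022). Its other probe had the same direction. Timp3, an inhibitor of matrix metalloproteases, was at 0.78, 1.17 and 1.14 at 6 h, against 2.32, 1.92 and 2.15 at 3 h, one of the larger decreases (difference -1.1, SE 0.18, adjusted p = 0.00236). Cell cycle genes, neurotrophic factors with their receptors, and histone deacetylases with other chromatin regulators had 0 of 20, 0 of 18 and 0 of 14 members called by limma. At an unadjusted p under 0.05 these lists had 4 higher and 0 lower, 0 higher and 2 lower, and 0 higher and 2 lower. Without 6 h replicate 1, 5 cell cycle and 5 activin pathway genes were called higher.

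**Figure D3:**
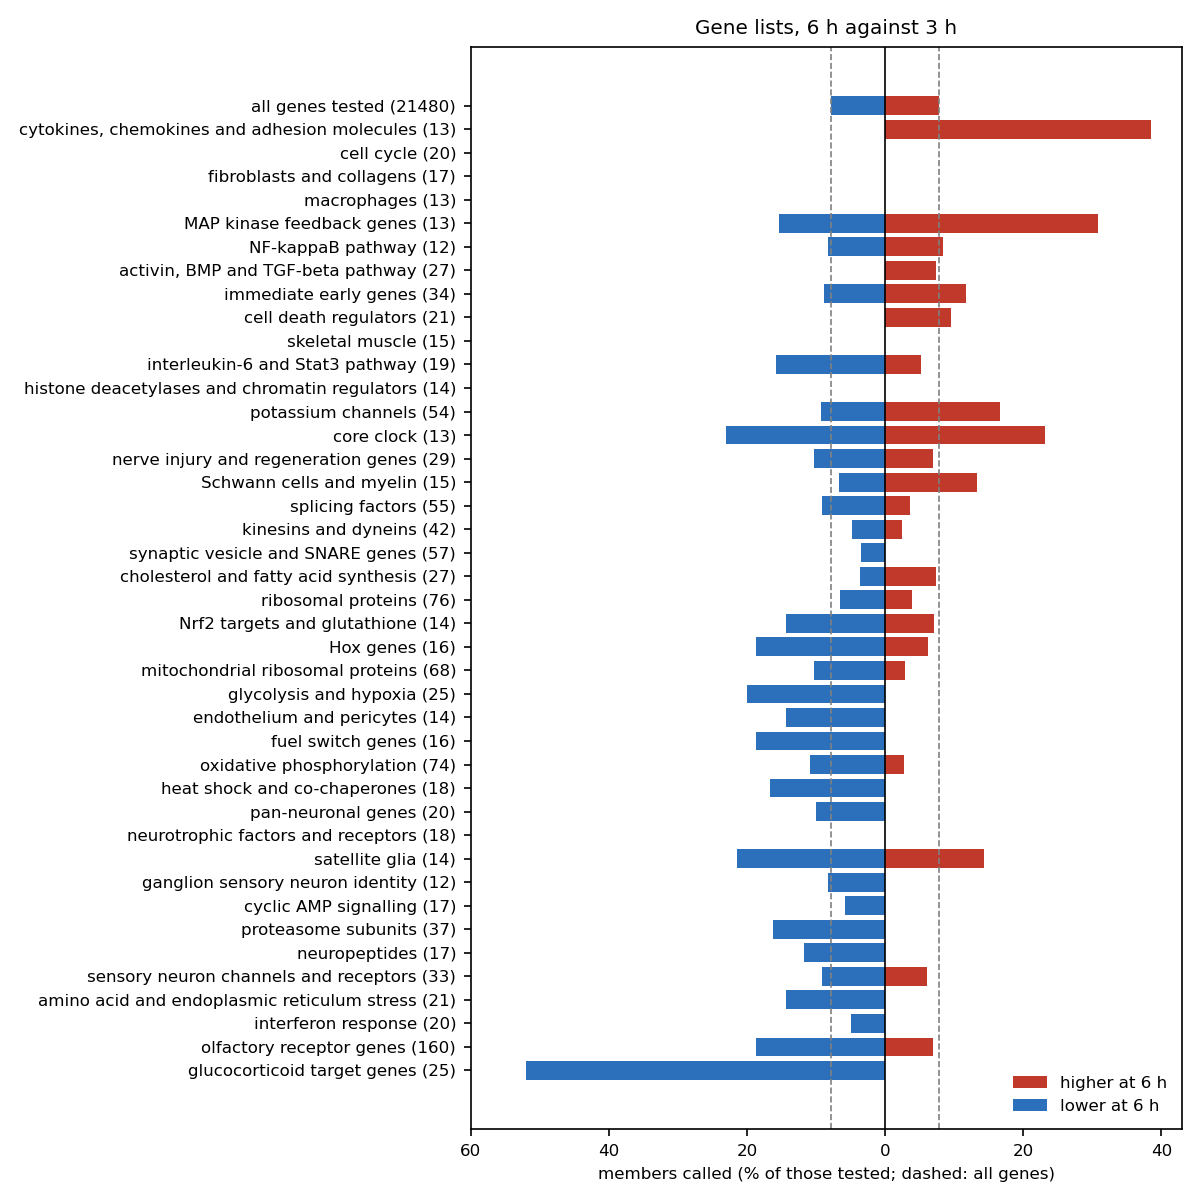
Share of the members of each gene list called higher (red, to the right) or lower (blue, to the left) at 6 h than at 3 h, in % of the members tested, whose number stands in brackets; lists with at least 12 members tested are shown in order of their median difference. Dashed lines mark the share over all genes, 7.8% higher and 7.9% lower, and glucocorticoid targets at 52.0% lower and cytokines at 38.5% higher reach farthest.

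Of the 12 largest increases 8 were of genes measured by probes with up to 30% G and C, against 0 of the 12 largest decreases. Gclm (5.85-fold), a subunit of the enzyme that makes the precursor of glutathione, Ptpn12 (4.64-fold), a tyrosine phosphatase, Abcb1 (3.62-fold), the efflux pump P-glycoprotein, and Adamts1 (3.53-fold), a secreted metalloprotease, had probes with 15 to 16.7% G and C. The first 30 of the 60 bases of the probes of 6 genes are shown, 4 of the largest increases and 2 of the largest decreases, because their base composition differed. Coordinates are those the files give on rn4, for Gclm chr2:218915215-218915274 on the plus strand, for Ptpn12 chr4:9589700-9589758 (plus), for Abcb1 chr4:21795859-21795918 (plus), for Adamts1 chr11:25434208-25434267 (minus), for Zbtb16 chr8:51934505-51934564 (minus) and for Nfkbia chr6:75730438-75730497 (minus). Capitals mark runs of at least 4 A or T.
Gclm: ATATATTTccTTTATTTTTATgagTAATAg
Ptpn12: TATAATAATAccTTTTgTAAATTgtaagca
Abcb1: gTAAATATTTgATAATATATAcTTTTATTT
Adamts1: aacATATTTATTTTTATAcATTTATTTcta
Zbtb16: ccacccATATgagtgtgagttctgtggcag
Nfkbia: aagtgtggggctgatgtcaacagagtaacc
In the 30 bases shown, the probes of the 4 genes that rose were made mostly of such runs, while that of Zbtb16 held 1 short run and that of Nfkbia none. Over all 60 bases both of the last had 55.0% G and C.

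Gclm was at -3.83, -3.94 and -3.45 at 6 h, against -6.22, -6.11 and -6.54 at 3 h (log2 2.55, SE 0.15, adjusted p = 2.62e-06), and Adamts1 at -2.40, -2.28 and -2.03, against -4.14, -3.61 and -4.41 (log2 1.82, SE 0.24, adjusted p = 0.000586). Both were also high at 0.5 h, with -4.05, -3.84 and -3.91 for Gclm and -1.83, -2.40 and -2.08 for Adamts1. Both were lower again at 9 h, with -5.70, -5.61 and -5.94 for Gclm and -3.07, -3.22 and -3.81 for Adamts1. The groups of 6 h and 3 h did not come near each other in either gene. All genes with probes of up to 30% G and C had median centred levels of 0.20, 0.24 and 0.26 at 0.5 h and 0.01, -0.12 and -0.165 at 9 h. The median local background was 86, 82 and 64 intensity units at 0.5 h, against 38 to 45 at 3 h and 6 h. Time and batch cannot be told apart at 0.5 h and 9 h. At 3 h Gclm was dim, though its probe passed the filter. The median level of genes with probes of up to 30% G and C was -1.13. The rise of Gclm is thus a ratio to a small value. Under normexp the differences were 1.58 for Gclm and 1.44 for Adamts1. Neither gene was called there (adjusted p = 0.208 and 0.117), nor were Ptpn12 and Abcb1 (0.241 and 0.116).

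The base composition of the probe moved with the difference over all genes. Of 635 genes whose probe had up to 30% G and C, 306 rose (48.2%) and 1 fell, and their median difference was 0.30. Of 7783 genes with above 30 to 40%, 643 rose and 368 fell. Of 8772 with above 40 to 50%, 530 rose and 888 fell, and of 4082 with above 50 to 60%, 156 rose and 422 fell. Of the 208 above 60%, 40 rose and 18 fell. The genes of the lowest class had median centred levels of 0.05, 0.08 and 0.15 on the 6 h arrays and -0.21, -0.15 and -0.33 on the 3 h arrays. Its part in the results was not tested beyond a fit in which composition was removed from each array: there 3146 genes were called, 1621 higher and 1525 lower, and 2333 of the 3372 kept their call.

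**Figure D4:**
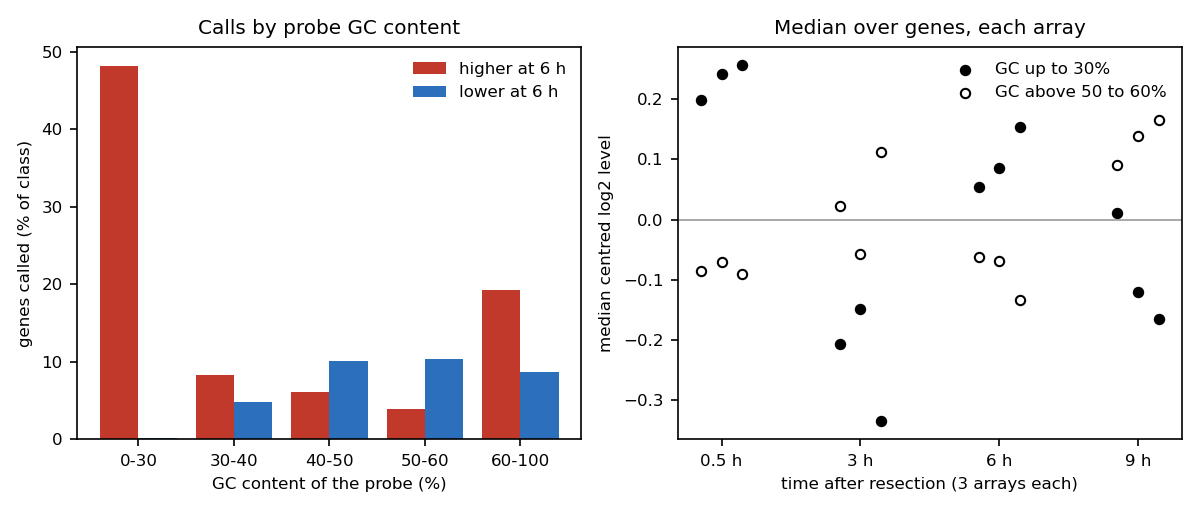
Left, share of genes called higher (red) or lower (blue) at 6 h than at 3 h by the G and C content of the probe, in % of the genes of each class; right, median log2 level of 2 classes, centred over the 12 arrays, on each array. In the class up to 30% G and C 48.2% of genes were called higher, and its median is above 0 on the 6 h arrays and below 0 on the 3 h arrays.

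The glucocorticoid and cytokine lists lay near the middle of the range of composition, while single genes described above did not. The median probe content was 46.7% G and C for the glucocorticoid targets and 41.7% for the cytokines. With composition removed, 12 glucocorticoid targets fell and none rose, with a median difference of -0.47, and 5 cytokine genes rose and none fell, with a median of 0.43. In that fit the differences of Cxcl1, Per2 and S100b were 1.70, 0.98 and 1.20. Gclm differed by 2.03 and Adamts1 by 1.42. Some small housekeeping genes were among the largest increases of their lists, such as Cox7c, a subunit of cytochrome oxidase (log2 1.31, and 0.86 with composition removed), and Rps26, a ribosomal protein (1.08, and 0.67). Of 74 oxidative phosphorylation genes 2 rose and 8 fell (13.5% called), and of 76 ribosomal protein genes 3 rose and 5 fell (10.53%), both shares below the 15.7% over all genes. No oxidative phosphorylation gene was lower with composition removed (3 higher), in the fit to the 6 arrays (2 higher), or without 3 h replicate 1 or 6 h replicate 3. The difference of Kcnh2, whose probe had 26.7% G and C, was 0.47 with composition removed, and that of Stat3 was 0.24. The calls for Egr1 (adjusted p = 0.0604), Sox11 (0.0623), Per1 (0.0757), Mapt (0.0739), Nfkbiz (0.142), Ptprz1 (0.0516) and Slc1a3 (0.132) ended in that fit.

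Among genes with probes of middling composition, Serpinb6b, a serine protease inhibitor, was at 1.38, 1.38 and 1.43 at 6 h, against -0.05, -0.04 and -0.16 at 3 h, which is 2.79-fold higher (log2 1.48, SE 0.06, adjusted p = 7.22e-07). Sult1b1, a sulfotransferase, was at -2.07, -3.00 and -2.53 at 6 h, against -1.08, -1.19 and -1.31 at 3 h, a difference of -1.34 (SE 0.22, adjusted p = 0.00216). In both genes the times lay apart. Epyc, a small proteoglycan of cartilage matrix, had the largest decrease of the named genes, but its arrays were widely spread, at -3.53, -2.95 and -3.97 at 6 h and at -1.39, -0.48 and -2.78 at 3 h (difference -1.93, SE 0.53, adjusted p = 0.0319). Its call ended without 3 h replicate 1 or 2 or 6 h replicate 1 or 3 (0.0682 to 0.12).

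Tissue around the ganglion differed between arrays more than between times. Skeletal muscle markers (15 tested) had mean centred levels of -0.97, 2.07 and 0.28 at 6 h and 1.06, 1.07 and -1.13 at 3 h, and adipocyte markers (7 tested) -0.35, 0.32 and 0.54 at 6 h and 1.04, 0.95 and -1.31 at 3 h. Red blood cell markers (7 tested) were at -0.30, -0.16 and 1.38 at 6 h and at -0.24, 0.14 and -0.63 at 3 h, with 6 h replicate 3 the highest, as for neutrophils. Fibroblast and collagen genes (17 tested) were at -0.20, 0.38 and 0.30 at 6 h and at -0.40, 0.19 and 0.02 at 3 h. In all 5 lists, neutrophils included, the arrays of the times overlapped. None of their members was called by limma, also not in any fit without 1 array, and at an unadjusted p under 0.05 the neutrophil list had 1 higher and the other 4 lists 0. Of the lymphocyte list, the T cell receptor subunit Cd3d was called higher (log2 0.56, SE 0.12, adjusted p = 0.0125), the 1 of 5 tested. Of 14 endothelial and pericyte genes 2 fell (14.3% called, close to the 15.7% over all genes). The tight junction protein Cldn5 differed by -0.39 (SE 0.07, adjusted p = 0.00486) and was not called under normexp (0.0545). The other probe of the cadherin Cdh5 had the opposite sign, and normexp turned the sign of Cdh5.

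**Figure D5:**
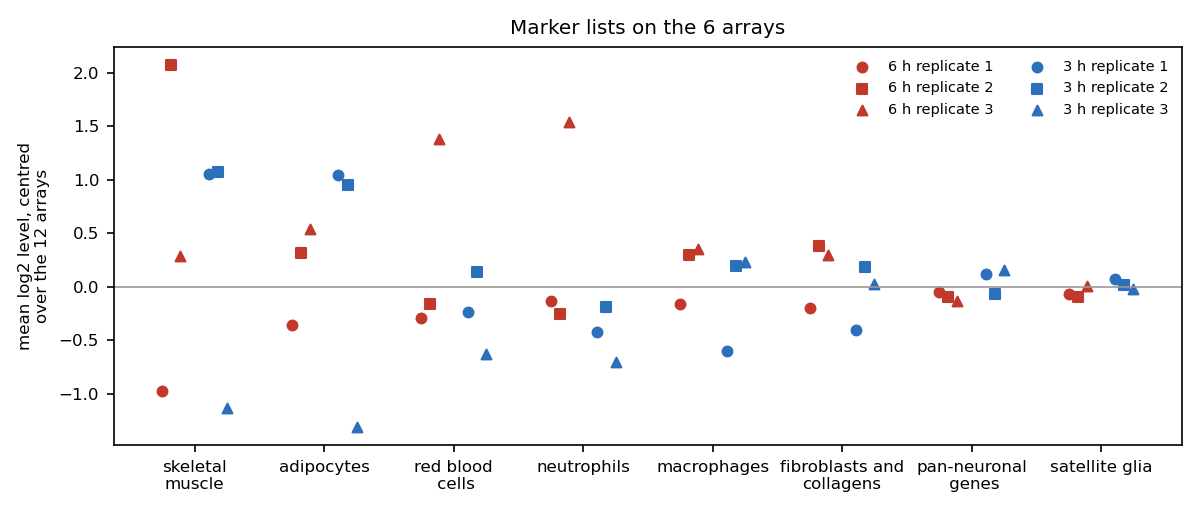
Mean log2 level of 8 marker lists, centred over the 12 arrays, on the 3 arrays of 6 h (red) and the 3 arrays of 3 h (blue); marker shapes are replicate numbers. Muscle spans -0.97 to 2.07 at 6 h and -1.13 to 1.07 at 3 h. Pan-neuronal genes span -0.14 to -0.05 at 6 h and -0.07 to 0.15 at 3 h, and satellite glia genes -0.10 to 0.00 and -0.02 to 0.08.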

How the data were processed

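RNA from rat dorsal root ganglia was measured on 1-colour Agilent arrays. Per the labels' protocols, total RNA was extracted with Trizol, purified on RNeasy columns, amplified with a low-input kit and labelled with Cy3. The deposited values are background-subtracted spot intensity values on a linear scale, made with Agilent Feature Extraction 10.5.1.1 per the file headers; the authors' deposited series table repeats these intensities unchanged. Later steps of the authors are not given in the sources used here. No deposited column belonged to another sample (0 columns).

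Control spots (1639 of 45018) and outlier spots were left out, spots of 1 probe were averaged, and log2 intensities were set relative to the array's own 75th percentile. Of 41012 probes, 25455 passed the scanner software's test for being well above background on each of the 12 arrays. The names are those of the files, and 42.9% of the genes tested matched a current RefSeq symbol through their accession. All 4 times entered 1 limma 3.58.1 fit (R 4.3.3, lmFit and eBayes, files read with the R package data.table, 1.17.8), with 6 h minus 3 h as the contrast and Benjamini-Hochberg adjustment over 21480 genes. The scripts were tested on simulated data. With 3 arrays per time, precision is limited.

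The genes and lists were chosen with earlier results of these data known. Named genes are the 12 largest increases and decreases called with non-overlapping arrays and no placeholder or chemosensory receptor name, up to 4 called members of each list by lowest p, and a fixed set of further genes, called or not. This yielded 137 genes, of which 2 are not reported here, and 122 of the other 135 were called; the text also names other called members of lists it describes. Gene lists got no test of their own. Alternatives were other background, scaling, filter, probe and variance choices, replicate and slide blocks, the 6 arrays alone, and leaving out each array. Removing probe base composition was chosen after seeing the data.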

Additional observations from a re-analysis of the deposited data

How the results depend on the processing

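Over 27 alternatives, the 135 named genes kept direction and side of the threshold in 3078 of 3645 values, lost the call in 529 and gained it in 15. Against 3372 calls (1675 higher, 1697 lower), the fit to 6 arrays gave 2648 (1433 and 1215), quantile scaling 2980 (1739 and 1241), median scaling 2489 (1590 and 899), cyclic loess 3101 (1994 and 1107), no filter on dim probes 2726 (1624 and 1102) and normexp 605 (436 and 169). Normexp moved the median difference of all genes to 0.06, against -0.06. Array weights gave 9861 (3651 and 6210). The slide as a random block gave 6865 (2699 and 4166), with an estimated correlation of -0.22 within slides. Without 1 array the counts ranged from 1779 to 3568, with 1119 to 1758 higher and 660 to 1810 lower. The share higher moved by over 10 percentage points without 3 h replicate 1 (1190 and 752) and without 6 h replicate 3 (1119 and 660).

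Among called genes the sign turned under normexp for Rgs1 (0.0624), Sox11 (0.25), Cdh5 (0.0651), Cebpb (0.0594), Socs2 (0.0202), Hoxc5 (0.19), Hif3a (0.17), Olr1230 (0.13) and Olr769 (0.21), and with the mean of all probes for Hspa4 (0.0573). Among genes not called it turned under normexp for Gem (0.54), Ecel1 (0.37), Jun (-0.0619) and Dbp (-0.032). The causes were not tested.

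No pairing by replicate number was seen: the deviations of same-numbered 6 h and 3 h arrays from their group means correlated at 0.01, 0.06 and -0.16 across genes. Between arrays of unlike number the correlations ran from -0.298 to 0.287. Such values cannot show whether rats or processing were shared. With replicate number as a block, 2690 genes were called (1478 higher and 1212 lower), 2580 of them among the 3372.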

Other observations

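Olfactory receptor genes had a higher share of calls than all genes together (25.6%, against 15.7%): of 160 tested, 11 rose and 30 fell, with a median difference of -0.33. The largest increase among them was Olr300, at -1.76, -1.46 and -1.46 at 6 h, against -3.24, -3.50 and -2.86 at 3 h (log2 1.64, SE 0.14, limma adjusted p = 3.23e-05). Olr1230 was at -5.22, -4.73 and -5.07 at 6 h, against -4.05, -3.85 and -4.17 at 3 h (difference -0.98, SE 0.14, adjusted p = 0.00106). Under normexp 4 members were higher and none lower, and over the fits without 1 array 6 to 14 were higher and 12 to 40 lower.

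Called genes had 528 further kept probes, and 366 of these (69.3%) had the direction of the probe used.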
